A study of Mus musculus with 82 samples.

Results

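Skin biopsies taken 2 h (h2) after whole-body X-rays of 6 Gy were compared with those taken at the same time after 1 Gy. The comparison rests on 8 of the 82 arrays of the series, all those labelled with this time point and 1 of these doses. There were 4 arrays of 6 Gy (mice M017, M016, M019 and M020) and 4 of 1 Gy (mice M010, M006, M007 and M009), each from a different mouse. The 5 arrays of 3 Gy at h2 (M011 to M015) are given as the middle of the dose order, and the 4 sham arrays (M001, M004, M005 and M002) as the level without irradiation. All mice were male C57BL/6j, the black inbred laboratory strain, young adult and of wild-type genotype as far as the labels say. Irradiated mice received ketamine and xylazine, with isoflurane as needed, and were exposed in groups within 1 container under a linear accelerator. Sham mice were carried to the radiation table, received no X-rays, and were anesthetized for the biopsy. Each biopsy was shaved back skin, so each value is an average over epidermis, hair follicles, dermis, fat, muscle and blood. In such bulk tissue, fewer cells of a type and less RNA per cell cannot be told apart.

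Each array was an Agilent 2-colour slide, on which RNA of the biopsy was labelled with Cy5 and a universal mouse reference RNA with Cy3. A value is therefore a log2 ratio of the biopsy to the common reference, without a dye swap, and values of different probes are not set against each other. In each dose, 1 array was read on scanner 1 (M010, M011 and M017) and the others on scanner 2. Pairs of h2 log ratio profiles of 1, 3 and 6 Gy correlated at 0.909 to 0.978 within a scanner and at 0.838 to 0.893 between scanners, so scanner entered the fit as a block. The 6 Gy and 1 Gy mice shared no slide. Of all probes, 50.1% to 69.4% were well above background in Cy5 on the 13 arrays. The sham mouse M002 stood apart from the other sham mice, and was the sham array on scanner 2. Its mean log2 ratio over 15 markers of growing hair follicles was 5.83, against 0.25, 0.21 and 0.12 in the other sham mice. In the 6 Gy mice this mean was 0.17 (M017), 0.12 (M016), -0.004 (M019) and 1.77 (M020). It ran from 0.09 to 0.72 in the 1 Gy mice. The part of hair growth in other differences was not tested. On all 13 irradiated arrays, 8 of 8 tested markers of basal epidermis, 16 of 17 of differentiated epidermis, 12 of 12 of fibroblasts and 13 of 13 of adipocytes were well above background, as the label of skin requires.

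Ionizing radiation breaks DNA, and the kinases that sense the breaks stabilise the transcription factor p53, which within hours induces genes of cell cycle arrest, such as Cdkn1a, of its own turnover, such as Mdm2, and of cell death, such as Bax. The skin also responds to handling, anaesthesia and the time of day through glucocorticoids, whose receptor induces Fkbp5, Tsc22d3 and other genes. The glandular kallikreins of the Klk1 subfamily, a cluster of closely related genes on mouse chromosome 7, encode secreted serine proteases that cleave kininogen and growth factor precursors and are best known from the salivary glands of male mice.

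The data show a small difference between 6 Gy and 1 Gy at h2, with Klk1b4 as the only probe with a gene symbol past both thresholds of a significantly differentially transcribed gene (SDTG, at least 2-fold, with an adjusted p below 0.05). Klk1b4 was 2.99-fold higher after 6 Gy, and other probes of the Klk1 subfamily differed in the same direction without passing. The call of Klk1b4 was lost in 17 of 29 other settings of the analysis. Collagens and other fibroblast genes lay higher after 6 Gy, and genes induced by glucocorticoids lower, and no member of either group passed. The p53 targets differed little, with most values slightly below 0.

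Of 30294 tested probes, 2 were called higher after 6 Gy (0.0066%) and 0 lower (0%) in limma's test with Benjamini-Hochberg adjustment, with a lowest adjusted p of 0.0384. At an unadjusted p under 0.05, 700 probes were higher (2.31%) and 350 lower (1.16%). Together this was less than the 5% that this threshold passes when nothing differs. Of these probes, 49 were higher (0.162%) and 8 lower (0.0264%) by at least 2-fold. The share at an unadjusted p depended on the setting. It exceeded 5% on the arrays of 1, 3 and 6 Gy at h2 alone, with 1879 probes higher and 1403 lower. It also did so on those of 1 and 6 Gy alone (2138 and 1626) and in the deposited normalized table (1752 and 2113). With slide as a fixed block it did so too (1137 and 1043). In the other settings tried it stayed below 5%. The median difference over all tested probes was -0.00 and the median standard error 0.19 on the log2 scale. The steps within the dose order gave no call in limma's test, with 0 probes higher and 0 lower (0% each) for 3 Gy against 1 Gy and likewise for 6 Gy against 3 Gy. At an unadjusted p, 558 probes were higher (1.84%) and 356 lower (1.18%) after 3 Gy than after 1 Gy, and 357 were higher (1.18%) and 400 lower (1.32%) after 6 Gy than after 3 Gy. By at least 2-fold, 16 (0.0528%) and 7 (0.0231%) differed in the lower step and 3 (0.0099%) and 1 (0.0033%) in the upper. A slope over 1, 3 and 6 Gy was called upward for 3 probes (0.0099%) and downward for 0 (0%) at an adjusted p alone, and at an unadjusted p for 687 (2.27%) and 352 (1.16%). These 3 comparisons and the slope share arrays, so they are not separate evidence.

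**Figure D1:**
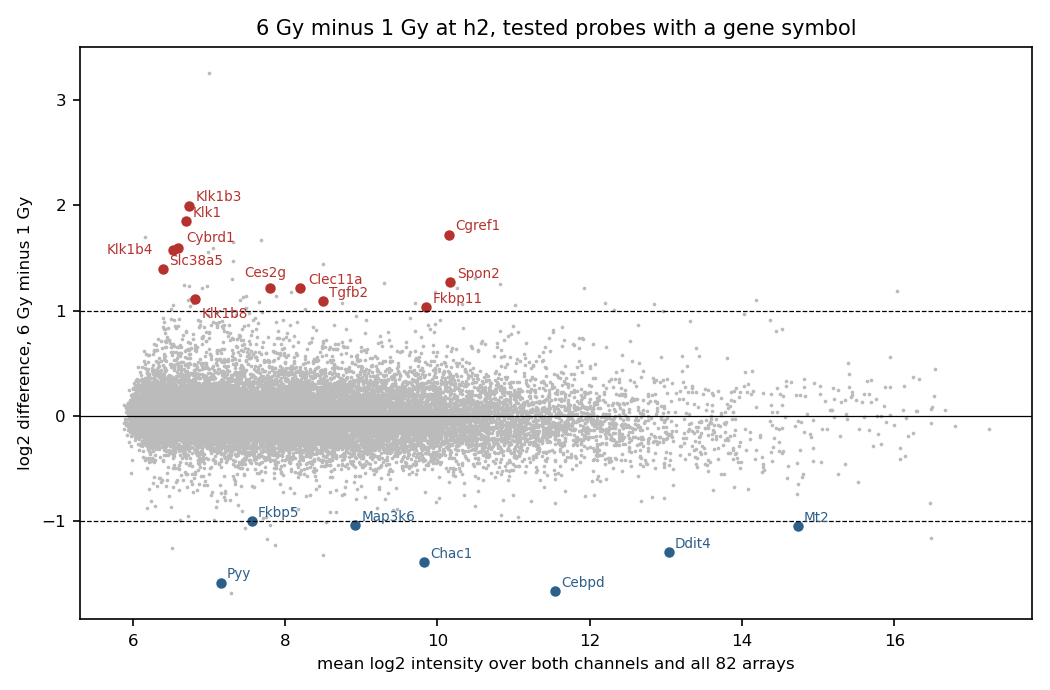
Difference between 6 Gy and 1 Gy at h2 on the log2 scale (vertical axis) against the mean log2 intensity over both channels and 82 arrays (horizontal axis), with 1 point for each tested probe that has a gene symbol. Dashed lines mark a fold change of 2. Red points are the genes named as higher by rule and blue points those named as lower, and of all of them Klk1b4 alone, at 1.58, passed the adjusted threshold.

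The Klk1 subfamily is shown by its promoters, because several of its probes differed together. The following windows hold the 250 bases before the annotated start of 4 members (RefSeq, GRCm38.p6, plus strand), 5′ to 3′, with the motif TTTAAA in capitals. They lie at chr7:44207183-44207432 (Klk1b4), chr7:44197941-44198190 (Klk1b3), chr7:43950416-43950665 (Klk1b8) and chr7:44225110-44225359 (Klk1).
Klk1b4: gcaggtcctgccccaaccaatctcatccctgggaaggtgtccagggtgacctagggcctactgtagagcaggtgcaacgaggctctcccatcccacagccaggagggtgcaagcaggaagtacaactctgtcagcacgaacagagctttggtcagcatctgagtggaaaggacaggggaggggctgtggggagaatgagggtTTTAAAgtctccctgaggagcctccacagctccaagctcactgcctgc
Klk1b3: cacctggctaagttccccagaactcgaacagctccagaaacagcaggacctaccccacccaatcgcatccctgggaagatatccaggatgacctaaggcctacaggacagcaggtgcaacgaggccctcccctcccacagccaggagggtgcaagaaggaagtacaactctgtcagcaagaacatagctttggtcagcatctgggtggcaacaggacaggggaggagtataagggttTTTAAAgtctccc
Klk1b8: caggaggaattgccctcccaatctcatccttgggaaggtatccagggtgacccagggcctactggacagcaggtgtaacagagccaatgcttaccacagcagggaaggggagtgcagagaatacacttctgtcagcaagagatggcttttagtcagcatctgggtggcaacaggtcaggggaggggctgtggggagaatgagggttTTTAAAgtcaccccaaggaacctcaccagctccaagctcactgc
Klk1: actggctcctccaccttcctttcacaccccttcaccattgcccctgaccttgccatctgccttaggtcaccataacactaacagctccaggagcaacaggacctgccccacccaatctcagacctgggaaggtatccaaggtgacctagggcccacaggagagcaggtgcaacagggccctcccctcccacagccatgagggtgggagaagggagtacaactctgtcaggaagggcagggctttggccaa
The letters TTTAAA, which read the same on both strands, occurred in 12 of the 14 promoters of the subfamily and in 12.1% of 32851 mouse promoters of the same length. The window of Klk1 did not hold them. The letters TATAAA, searched on both strands, were in 0 of the 14 (12.4% of all), and AGAACA, an arm of the glucocorticoid response element, in 2 of the 14 (16.1% of all). Among the 5 members whose probes differed at an unadjusted p, the pairwise identity of the windows ran from 44.5% to 78.3% with a median of 62.1%. The median was higher between these 5 and the other members, at 73.0%, and among the others, at 78.0%. The identity depends on where each start is annotated. The window of Klk1b4 was closest to that of its neighbour Klk1b5, at 87.5%. The annotated starts of the 14 genes lie within 274.7 kb. A match describes the letters of a window and does not show that a factor binds there.

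Klk1b4 encodes a glandular kallikrein known as the alpha subunit of the 7S nerve growth factor complex. Within 1, 3 and 6 Gy, values are given with the mouse of scanner 1 first, and in sham with the 3 mice of scanner 1 first and M002 of scanner 2 last. Its log2 ratio was 0.19, 0.37, 0.68 and 0.35 after 1 Gy, and 1.56, 2.65, 2.26 and 1.43 after 6 Gy. All 4 mice of 6 Gy lay above all 4 of 1 Gy, which was so for 2.12% of 29715 probes. The difference was 1.58 ± 0.30 (SE, n = 4 and 4; 95% confidence interval 0.97 to 2.19; adjusted p = 0.0384 in limma's test), with 1.37 on scanner 1 and 1.65 on scanner 2. After 3 Gy the values were 1.20, 0.79, 0.17, 0.56 and 2.25, so the middle dose ran from the level of the 1 Gy mice to that of the 6 Gy mice. The slope was 0.32 per Gy (adjusted p = 0.0324). The sham mice read 0.82, 0.90, 1.44 and 0.48. Scanner by scanner, the 3 sham mice of scanner 1 lay above the 1 Gy mouse there (0.19), and the sham mouse of scanner 2 lay within the range of the 1 Gy mice there. On slides that held both doses, 3 Gy minus 1 Gy was -0.04 and 1.02, and 6 Gy minus 3 Gy was 1.05. The call was lost, at 0 probes, without any one of the 1 Gy mice or without M016 or M019 of 6 Gy, and with slide in the model, and over all settings tried Klk1b4 stayed above 0 and lost its call in 17 of 29.

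A probe for which no gene symbol was matched, A_51_P416647, was the other call. It read 0.23, 0.31, 0.48 and 0.33 after 1 Gy and 1.37, 2.25, 1.81 and 1.25 after 6 Gy, without overlap. After 3 Gy it read 1.02, 0.79, 0.53, 0.50 and 1.94. Its difference between 6 Gy and 1 Gy was 1.33 ± 0.25 (SE; adjusted p = 0.0384 in limma's test) and its slope 0.26 per Gy. The pattern over the mice was like that of Klk1b4, with M015 highest among the 3 Gy mice in both. A second probe without a matched symbol, A_52_P176659, differed by 1.99 ± 0.40 (SE) and just missed the threshold (limma adjusted p = 0.0521), and its slope of 0.40 per Gy passed (adjusted p = 0.045).

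The other Klk1 probes were not called. Klk1, Klk1b3 and Klk1b8 were named by a rule that required no overlap between 6 Gy and 1 Gy (2.12% of all probes). Their lack of overlap is thus part of how they were chosen and no separate evidence. Klk1, which encodes tissue kallikrein itself, read 0.66, 0.76, 1.13 and 0.98 after 1 Gy, and 2.52, 3.14, 2.93 and 2.36 after 6 Gy. The groups did not overlap and differed by 1.85 ± 0.41 (SE; limma adjusted p = 0.157), with 1.86 on scanner 1 and 1.85 on scanner 2. After 3 Gy, Klk1 read 2.21, 1.55, 0.86, 0.99 and 3.01, and in sham 1.07, 1.59, 2.32 and 0.83. Thus M011 and M015 of the 3 Gy mice lay near the 6 Gy mice and M013 and M014 near the 1 Gy mice. Klk1b3, which encodes the gamma subunit of the nerve growth factor complex, read 0.97, 0.91, 1.26 and 1.24 after 1 Gy and 2.58, 3.74, 3.02 and 3.03 after 6 Gy. Its difference was 2.00 ± 0.45 (SE; limma adjusted p = 0.157), and its other probe differed by 1.10. After 3 Gy, Klk1b3 read 2.18, 1.22, 0.76, 1.22 and 3.43, with the same 2 mice on top. Klk1b8 read 0.56, 0.12, 0.49 and 0.25 after 1 Gy and 1.71, 1.85, 1.31 and 0.98 after 6 Gy, without overlap, a difference of 1.11 ± 0.27 (SE; limma adjusted p = 0.268).

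**Figure D2:**
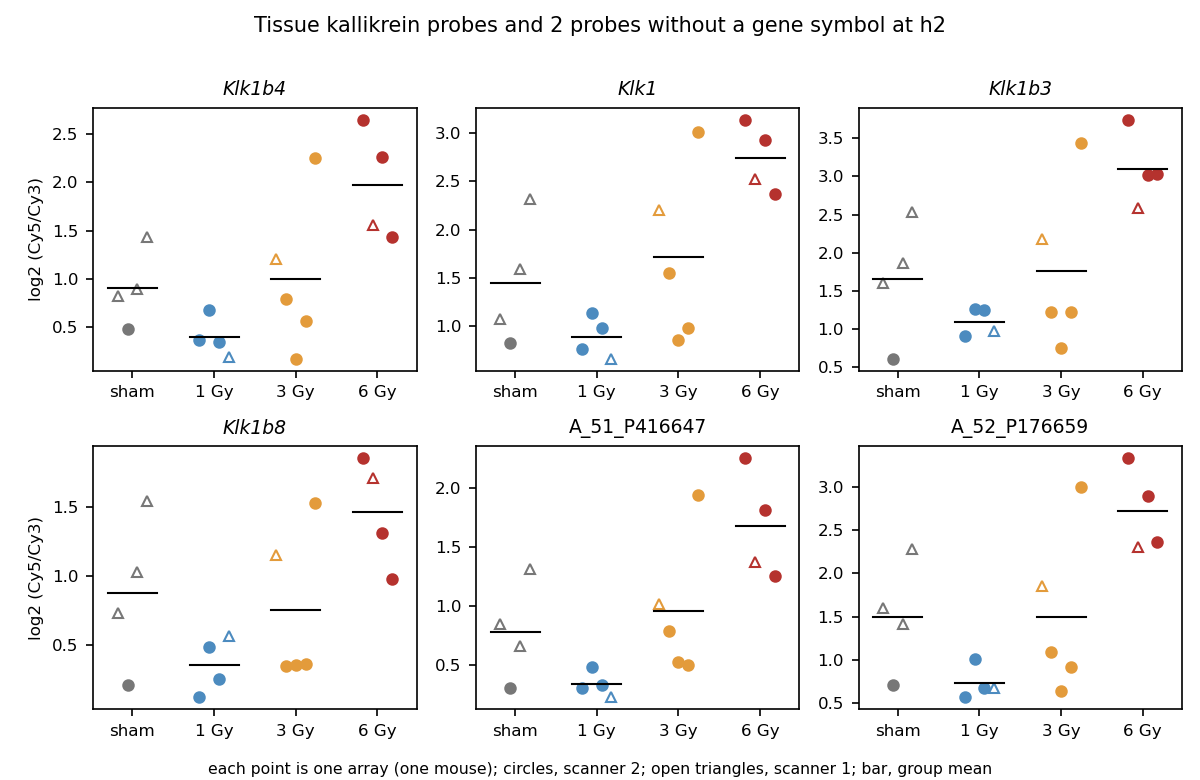
Log2 ratio of biopsy to reference for probes of the Klk1 subfamily and 2 probes without a symbol (vertical axes) by dose at h2 (horizontal axes). Each point is 1 mouse, with open triangles for scanner 1 and circles for scanner 2, and bars are group means. The 6 Gy mice lie above the 1 Gy mice without overlap, and the 3 Gy mice are spread between them, with M015 highest. For Klk1, Klk1b3 and Klk1b8 the lack of overlap was a condition of their choice.

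Among probes with a matched symbol, 14 probes of 13 genes belonged to the Klk1 subfamily. Of these, 9 probes of 8 genes passed the filter on dim probes. Of the 9, 6 were higher at an unadjusted p with no overlap on either scanner, beside 2.31% and 6.24% of all probes, and 4 were well above background on all 8 arrays of 6 Gy and 1 Gy. Klk1b24 was well above background on 4 of 4 arrays of 6 Gy and 0 of 4 of 1 Gy, so its level after 1 Gy was not measured. Klk1b9 and Klk1b21 were well above background on 2 and 4 of the 8 arrays, and Klk1b7-ps on 0 of them, with differences of -0.02, 0.09 and -0.05. The genes are paralogs, and whether RNA of one binds the probes of others was not tested, so which members the probes measured is uncertain. The epidermal kallikreins that shed the stratum corneum did not show the difference, with Klk7 at 0.41 ± 0.46 (SE) and Klk5 at -0.27 ± 0.54 (SE).

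The other genes that the rule named as higher were not called. Because the rule required no overlap between 6 Gy and 1 Gy, its absence in these genes is no separate evidence. Spon2, which encodes the matrix protein spondin 2, read -2.34, -2.25, -1.30 and -1.39 after 1 Gy, and -1.19, -0.11, -0.87 and -0.04 after 6 Gy. The groups did not overlap, although -1.19 and -1.30 lay close, and the difference was 1.27 ± 0.33 (SE; limma adjusted p = 0.405). The 3 Gy mice read -1.11, -1.38, 0.19, -0.53 and -0.36, 4 of 5 above all 1 Gy mice. Tgfb2, a ligand of the transforming growth factor beta pathway, read 0.14, -0.17, 0.27 and 0.33 after 1 Gy and 1.37, 1.56, 0.77 and 1.24 after 6 Gy. Its difference was 1.09 ± 0.28 (SE; limma adjusted p = 0.405). The 3 Gy mice overlapped both, at 0.86, 0.04, 0.42, 0.60 and 1.00.

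Cgref1, which encodes a secreted calcium-binding protein, read 1.70, 1.99, 2.14 and 2.39 after 1 Gy and 3.70, 4.31, 3.96 and 3.14 after 6 Gy. It differed by 1.72 ± 0.47 (SE; limma adjusted p = 0.457), and the 3 Gy mice, at 3.54, 2.76, 2.92, 2.35 and 4.28, overlapped both groups. Clec11a, a secreted lectin that acts as a growth factor, read 1.19, 0.87, 0.96 and 1.17 after 1 Gy, and 2.59, 2.41, 2.05 and 1.99 after 6 Gy. The 3 Gy mice, at 2.55, 1.66, 1.91, 1.66 and 2.18, all lay above the 1 Gy mice. The difference between 6 Gy and 1 Gy was 1.21 ± 0.37 (SE; limma adjusted p = 0.645). Ces2g, a carboxylesterase, differed by 1.22, the amino acid transporter Slc38a5 by 1.39, the ferric reductase Cybrd1 by 1.60 and the endoplasmic reticulum isomerase Fkbp11 by 1.03. The other probes of Cybrd1, well above background on 4 and 2 of the 8 arrays, differed by 0.16 and 0.26, and the other probe of Fkbp11, well above background on 1, by -0.10.

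**Figure D3:**
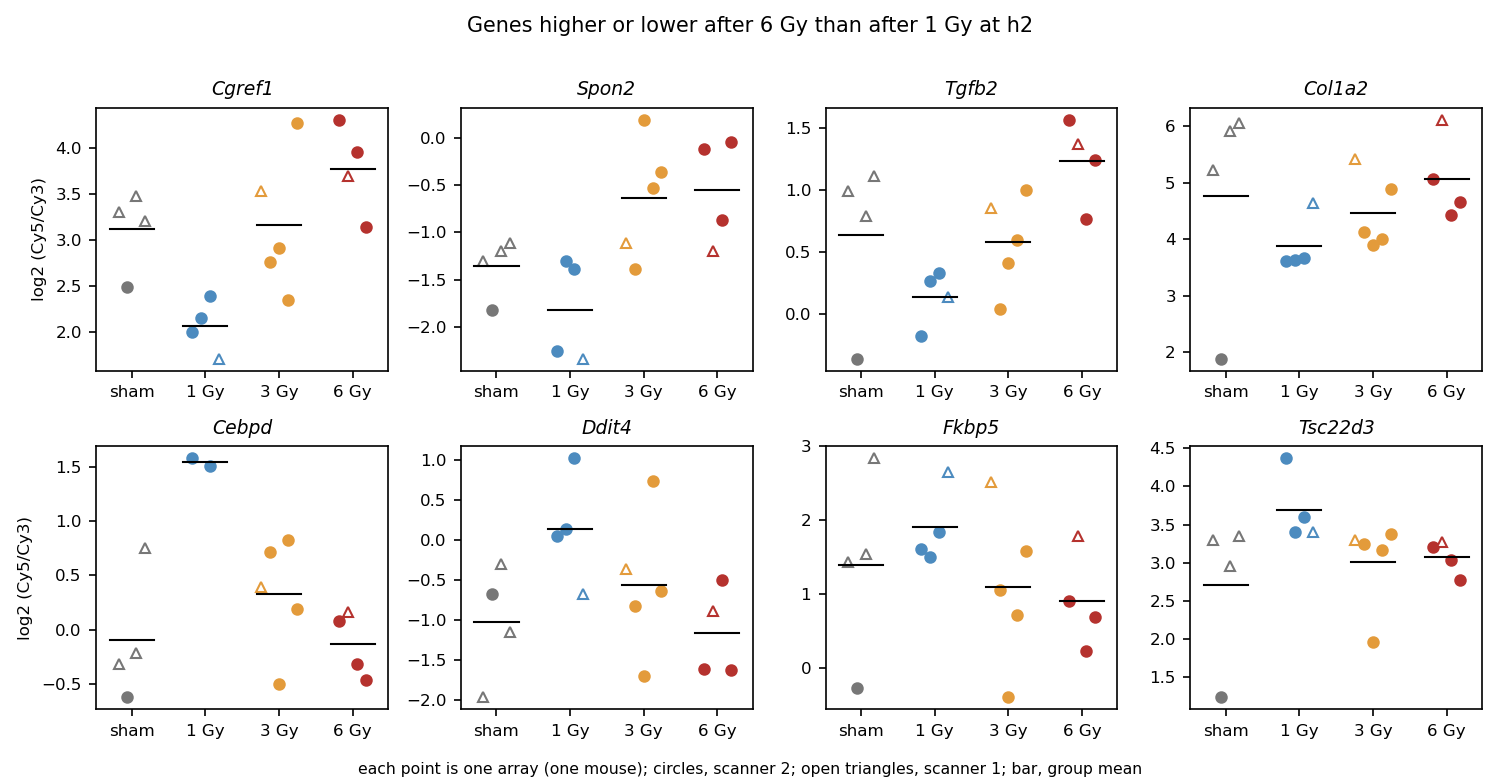
Log2 ratio of biopsy to reference (vertical axes) by dose at h2 (horizontal axes) for genes that lay higher and genes that lay lower after 6 Gy than after 1 Gy. Each point is 1 mouse, with open triangles for scanner 1 and circles for scanner 2, and bars are group means. None of these genes was called, and the 3 Gy mice overlap 1 or both of the other groups in most of them.

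No gene met the rule for the lower direction, and the 8 probes that were lower by at least 2-fold at an unadjusted p were chosen after their values were seen. Cebpd, a transcription factor of the acute phase and glucocorticoid response, was lowest relative to 1 Gy. It was measured in only 2 of the 1 Gy mice, at 1.58 (M006) and 1.51 (M009), since the spots of the other 2 were flagged as outliers. It read 0.16, 0.07, -0.31 and -0.47 after 6 Gy, a difference of -1.66 ± 0.48 (SE; limma adjusted p = 0.498). The 3 Gy mice read 0.39, 0.71, -0.50, 0.82 and 0.19, and 4 of the 5 lay between the other doses. Fkbp5, a co-chaperone of the glucocorticoid receptor and a textbook target of it, read 2.66, 1.61, 1.498 and 1.85 after 1 Gy, and 1.79, 0.90, 0.23 and 0.69 after 6 Gy. Across scanners the groups overlapped and within each scanner they did not, as for 4.71% of all probes in this direction, and the difference was -1.0 ± 0.38 (SE; limma adjusted p = 1.00). Ddit4, a stress-induced inhibitor of mTORC1, read -0.68, 0.06, 0.13 and 1.03 after 1 Gy and -0.89, -1.62, -0.51 and -1.62 after 6 Gy. Its difference was -1.29 ± 0.45 (SE; limma adjusted p = 1.00).

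The others were Chac1, an enzyme that degrades glutathione, at -1.39 ± 0.45 (SE) with M006 not measured, the peptide hormone Pyy at -1.58 ± 0.53, the metallothionein Mt2 at -1.05 ± 0.49, a probe of the kinase Map3k6 at -1.04 and the unnamed probe A_52_P1115511 at -1.28. Pyy spread widely among the 1 Gy mice, at 3.77, 1.19, 4.37 and 0.58. The brightest probe of Map3k6 differed by -0.78.

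Among the gene lists, the 12 fibroblast markers had the highest median difference, 0.78, and all 12 differences were above 0, beside 47.5% of the 15740 tested genes with 1 probe each. Of these 12, 0 were called, 1 was higher and 0 lower at an unadjusted p (2.29% and 1.18% of all genes), and 5 were higher with no overlap on either scanner (6.59% of all genes). Col1a2, which encodes a chain of type I collagen, read 4.64, 3.61, 3.63 and 3.66 after 1 Gy, and 6.12, 5.07, 4.43 and 4.67 after 6 Gy. Within each scanner the 6 Gy mice were higher, and the difference was 1.19 ± 0.57 (SE, 95% confidence interval 0.05 to 2.32; limma adjusted p = 1.00). The 3 Gy mice, at 5.43, 4.12, 3.91, 4.00 and 4.89, lay above the 1 Gy mice of the same scanner and overlapped the 6 Gy mice. Col1a1 differed by 0.80, Col3a1 by 0.91, Col5a2 by 0.91, the proteoglycan gene Dcn by 1.10 with M009 not measured, and the matrix glycoprotein gene Sparc by 0.83, which came to -0.03 with slide as a block. The mean log2 ratio over the 10 that were measured on all h2 arrays of these groups was 3.38, 3.19, 3.60 and 3.54 in the 1 Gy mice, 4.00, 3.60, 3.26, 3.69 and 3.81 in the 3 Gy mice, and 4.33, 4.05, 3.76 and 3.98 in the 6 Gy mice. All 6 Gy mice lay above all 1 Gy mice. In sham it was 3.78, 3.96 and 4.12 on scanner 1, above the 1 Gy mouse of that scanner, and 2.27 on scanner 2, below the 1 Gy mice of that scanner. Over all settings tried, the median difference of the list ran from 0.30, with slide as a fixed block, to 0.95. Like the Klk1 probes, these values were higher after 6 Gy than after 1 Gy. Among the 6 Gy mice, M017 was highest here and M016 was highest for Klk1b4. Among the 3 Gy mice, M011 and M015 lay above the others and M013 was lowest, both here and for Klk1b4. In sham, M005 was highest and M002 lowest in both. Among the 1 Gy mice, M007 was highest in both, with M006 lowest here and M010 lowest for Klk1b4. The part of these values in the Klk1 result was not tested.

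The GP6 and prothrombin pathway lists, which the study chose from these samples and which are thus no independent evidence of their direction, share collagens with the fibroblast list. Of 16 tested GP6 genes, 14 differences were above 0, with a median of 0.47, and 2 were higher and 0 lower at an unadjusted p, beside 47.5% above 0, 2.29% higher and 1.18% lower over all genes. Of 8 prothrombin genes, all 8 differences were above 0, with a median of 0.52, and 1 was higher and 0 lower. No gene of either list was called. From 1 Gy to 3 Gy the GP6 median was 0.41, and from 3 Gy to 6 Gy it was 0.05.

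Markers of macrophages and monocytes had a median of 0.32, with 9 of 10 differences above 0 (47.5% of all genes). Of the 10, 4 were higher without overlap on either scanner (6.59% of all genes) and 0 at an unadjusted p (2.29%). Ccr2, the chemokine receptor of inflammatory monocytes, differed by 1.01 ± 0.53 (SE), and Ly6c2, a surface marker of the same cells, by 0.57 ± 0.34 (SE). The Ccr2 difference was 0.16 on scanner 1 and 1.29 on scanner 2. The other probe of Ccr2, well above background on 2 of the 8 arrays, differed by 0.13. All 5 tested melanocyte markers lay above 0, with a median of 0.46, and their median for 3 Gy against 1 Gy was 0.67. All 8 basal epidermis markers lay below 0, at a median of -0.16, and 12 of 13 adipocyte markers, at a median of -0.23, and none of these reached an unadjusted p under 0.05. No marker of any cell type was called in either direction.

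**Figure D4:**
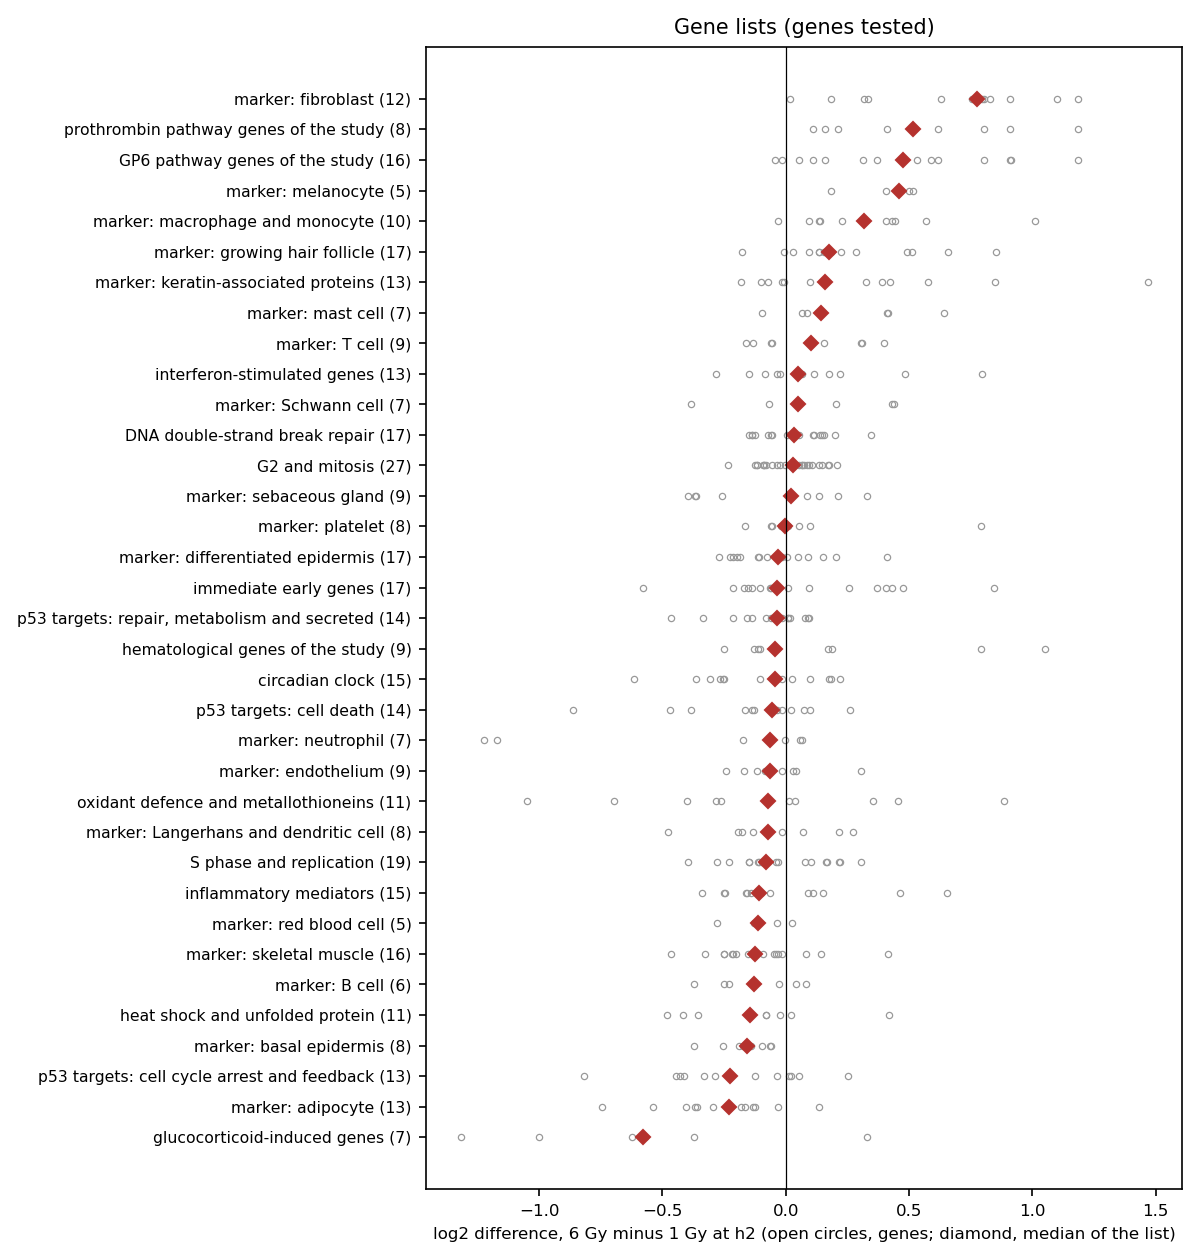
Differences between 6 Gy and 1 Gy at h2 on the log2 scale (horizontal axis) for the genes of each list (vertical axis), with 1 point a gene and a red diamond at the median of the list. The fibroblast list has the highest median, 0.78, and the glucocorticoid-induced list the lowest, -0.58, and 0 list genes were called.

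Genes induced by glucocorticoids had the lowest median of the lists, -0.58. Of the 7 tested, 6 differences were below 0 and 1 above, beside 47.5% above 0 over all genes. Of the 7, 3 were lower with no overlap on either scanner (5.53% of all genes). At an unadjusted p 1 was lower (1.18% of all genes), and 0 were called. The mean log2 ratio over the 5 genes that were measured on all h2 arrays of these groups was 2.35, 2.57, 2.43 and 2.44 in the 1 Gy mice, 2.46, 2.19, 1.11, 2.18 and 2.20 in the 3 Gy mice, and 2.19, 2.02, 1.74 and 1.88 in the 6 Gy mice. All 6 Gy mice lay below all 1 Gy mice, and the 3 Gy mice overlapped both, with M013 lowest of the irradiated mice. In sham it was 1.74, 2.09 and 2.51 on scanner 1, a range that held the 1 Gy and 6 Gy mice of that scanner. The sham mouse of scanner 2, at 0.72, lay below all irradiated mice. Over all settings tried, the median difference of the list ran from -1.27, with slide as a fixed block, to -0.39. Besides Fkbp5, Tsc22d3, which encodes the anti-inflammatory leucine zipper protein GILZ, differed by -0.62 ± 0.45 (SE), the transcription factor Klf9 by -0.58 ± 0.35 (SE), and the metabolic kinase Pdk4 by -1.32 ± 0.82 (SE) with M017 not measured. Of 15 circadian clock genes, 5 differences were above 0 and 10 below, with a median of -0.04, and 2 were lower at an unadjusted p (1.18% of all genes). Among these 2 was Per2, which glucocorticoids also induce, at -0.61 ± 0.30 (SE). The other probe of Per2 differed by -0.19. The hour of each biopsy and the time under anaesthesia are not given per mouse in the labels, and their part was not tested.

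The p53 targets, the textbook readout of dose, were not higher after 6 Gy than after 1 Gy at h2. Of 13 tested targets of cell cycle arrest and feedback, 4 differences were above 0 and 9 below, with a median of -0.23. Of 14 targets of cell death, 4 were above 0, with a median of -0.05, and of 14 of repair, metabolism and secretion, 6, with a median of -0.04. Over all tested genes, 47.5% of differences were above 0. Over the 3 lists 0 genes were called, 0 were higher at an unadjusted p and 2 lower (2.29% and 1.18% of all genes). Cdkn1a, the inhibitor of cyclin-dependent kinases that carries the arrest, read 1.42, 0.63, -0.01 and 0.03 after 1 Gy, and 0.96, 0.09, -0.51 and -0.26 after 6 Gy. The groups overlapped, and the difference was -0.45 (95% confidence interval -1.31 to 0.42). After 3 Gy, Cdkn1a read 1.20, 0.31, 1.15, 0.07 and 0.47, and in sham 0.97, 0.95, 1.43 and 1.16.

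Mdm2, the ubiquitin ligase of p53, differed by -0.23 (95% confidence interval -0.56 to 0.11), and Bax, an effector of mitochondrial cell death, by -0.02 (-0.37 to 0.34). Ccng1, a cyclin induced by p53, differed by -0.12 (-1.02 to 0.77), Phlda3, an inhibitor of Akt, by -0.47 (-1.06 to 0.12), and the death receptor gene Eda2r by -0.86 (-1.79 to 0.07). The upper bounds of these 6 intervals, Cdkn1a included, lay below 1, which is a 2-fold rise from 1 Gy to 6 Gy. The signs of Bax and Ccng1 turned under other settings. Trp53inp1, a stress protein that modifies p53, read 1.65, 1.94, 1.80 and 2.38 after 1 Gy, and 0.90, 1.28, 0.96 and 1.36 after 6 Gy. These groups did not overlap, as for 1.2% of all probes in this direction. The difference was -0.82 (-1.40 to -0.24; limma adjusted p = 1.00), and the second probe of the gene differed by -0.17. Gdf15, a stress-induced cytokine, differed by -0.47 (-0.90 to -0.03), and Apaf1, the scaffold of the apoptosome, by 0.26 (-0.03 to 0.55). The sham and 1 Gy mean log2 ratios were 0.35 and 1.87 for Ccng1, -0.21 and 0.78 for Phlda3, and -0.22 and 1.09 for Eda2r. They were 0.88 and 1.94 for Trp53inp1, -2.12 and -1.37 for Gdf15, and -1.3 and -1.11 for Bax. The 1 Gy mean was not higher for Cdkn1a (1.13 and 0.52), Mdm2 (-0.94 and -0.95) or Apaf1 (-0.54 and -1.19). On each scanner, the 1 Gy mice lay above the sham mice for Phlda3, Eda2r and Gdf15. The means are not adjusted for scanner, and this comparison was not tested.

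**Figure D5:**
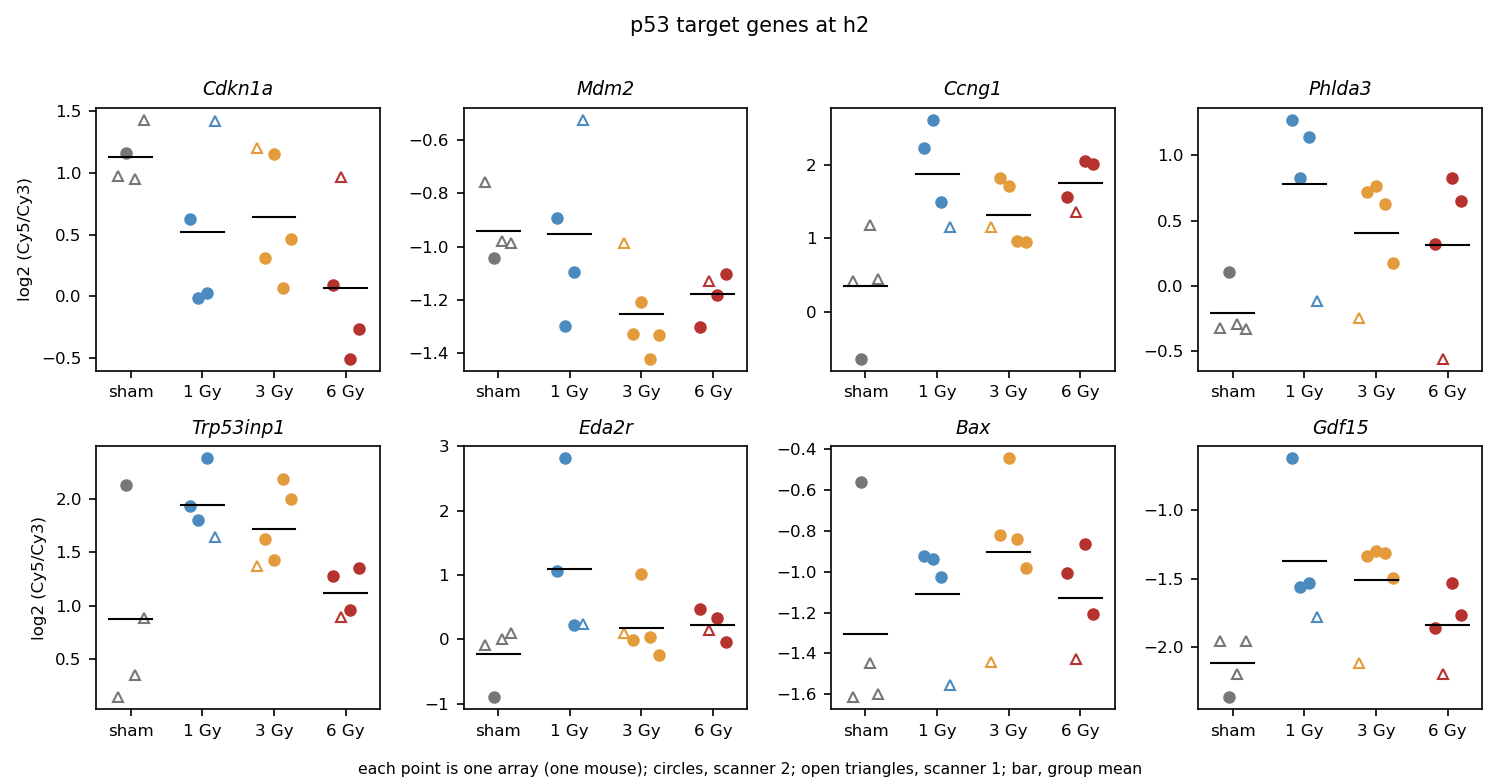
Log2 ratio of biopsy to reference for p53 target genes (vertical axes) by dose at h2 (horizontal axes). Each point is 1 mouse, with open triangles for scanner 1 and circles for scanner 2, and bars are group means. The 6 Gy and 1 Gy mice overlap for 7 of the 8 genes, and the exception is Trp53inp1 (1.2% of all probes were lower without overlap).

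Genes of proliferation and of the early response differed little. Of 27 genes of G2 and mitosis, 15 differences were above 0, with a median of 0.03 and 0 past an unadjusted p, and the 19 genes of S phase had a median of -0.08. Of 17 immediate early genes, 8 were above 0 with a median of -0.04. Egr1, a transcription factor induced within minutes of a stimulus, differed by 0.84 ± 0.62 (SE), and Fos by 0.41 ± 0.84 (SE), with mice of 1 dose far apart in both. Myc was lower at an unadjusted p, at -0.58 ± 0.20 (SE; limma adjusted p = 0.996). The 17 genes of double-strand break repair had a median of 0.04.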

How the data were processed

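RNA of skin biopsies (Cy5) was hybridised with a universal reference (Cy3) to Agilent arrays, and the authors extracted the spots with Agilent Feature Extraction (version 11.0.1.1 in the submitters' notes). The deposited scanner files hold median intensity of spot and background and a log10 ratio of Cy5 over Cy3, and the deposited normalized table holds log2 ratios made by the authors with steps that are not given in the sources used here. Its direction matched the scanner values of each array.

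From the intensity columns, outlier spots were left out (0.758% of values), the background was corrected by normexp (offset 50) and each array was normalized by loess in limma 3.58.1. The normexp parameters were fitted without spots flagged as non-uniform and without those whose background exceeded the signal by more than 50, because a few such spots upset the fit on many arrays. This was decided after seeing the data, and the fit on all spots is an alternative. Probes entered the test when at least 1 group had 50% or more of its arrays well above background. One model held all 82 arrays with a mean for each group of dose and time point and scanner as a block (58 residual degrees of freedom), and p-values were adjusted over all tested probes. At h2 each mouse gave 1 array, but the 82 arrays come from 24 mice with repeated biopsies, which this model treats as independent, and mouse as a random block is an alternative. The model was tested on simulated data. The array number limits the precision, and 0 pairs of arrays were identical.

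Symbols came from RefSeq accessions (GRCm38.p6), which matched 27572 of 41174 probes (66.96%), and a gene was represented by its brightest probe. Named genes were called probes first, filled up to 12 in a direction with genes of smallest unadjusted p under 0.05 that had a fold change of at least 2, were well above background on all 8 arrays and did not overlap between doses, and then list members by unadjusted p or as textbook members. The genes, lists and tests were chosen with earlier results of these data known. Alternatives covered the model, background, normalization, filter and each mouse left out.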

Additional observations from a re-analysis of the deposited data

Results flagged for a closer look

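Values here are log2 ratios adjusted for scanner. In 10 of 143 sets of mice, 1 mouse lay far from the rest by Dixon's test, which chance alone gives in about 1 of 20 sets. Among the 3 Gy mice, M015 was highest for Klk1b8 (1.87, the others 0.69 to 0.81), for the called probe A_51_P416647 (2.09, the others 0.65 to 0.94) and for Dcn (5.66, the others 4.63 to 4.88), and lowest for Phlda3 (-0.28, the others 0.17 to 0.3). M013 was lowest for the glucocorticoid-induced genes Tsc22d3 (2.05, the others 3.21 to 3.46) and Per2 (-0.52, the others 0.78 to 1.21), and for Defb8 (1.03, the others 5.36 to 6.26). Of the 1 Gy mice, M010 was lowest for Col1a2 (3.76, the others 4.49 to 4.54) and M006 highest for Gdf15 (-0.7, the others -1.7 to -1.61). Of the 6 Gy mice, M016 was highest for Ces2g (2.45, the others 1.49 to 1.62). No named gene's difference between 6 Gy and 1 Gy changed from h2 to d4 at an adjusted p under 0.05 in limma's test of that change.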

How the results depend on the processing

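The 2 probes called higher after 6 Gy became 0 without scanner in the model, on scanner 2 alone, with slide as a fixed or random block, with median centring, the scanner software's log ratio, quantile normalization, no filter on dim probes, or normexp fitted on all spots (chosen after seeing the data). With mouse as a random block they stayed 2 higher and 0 lower. They became 7 higher and 2 lower on the 13 arrays of 1, 3 and 6 Gy alone, 32 and 5 on the 8 arrays of 6 Gy and 1 Gy alone, and 7 and 3 in the deposited normalized table. Leaving out each mouse gave 0 to 6 higher, with 6 without M017, and 0 lower. The 3 upward slopes became 0 without scanner, on scanner 2 alone, with either slide block, the scanner software's log ratio or normexp on all spots, 1 with median centring or quantile normalization, 14 upward and 4 downward on the 13 arrays, 91 and 54 in the deposited table, and 0 to 7 with each mouse left out, 7 without M017 or M015. For 6 Gy against 3 Gy the deposited table gave 1 higher and 4 lower. The difference of Klk1b4 stayed above 0 in all 29 settings, between 0.85 and 2.39, with adjusted p from 0.00509 to 1. Those of Klk1 and Klk1b3, with limma adjusted p of 0.00831 on the 8 arrays alone, stayed above 0 in all 29 too.

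Signs turned for Bax with slide as a fixed block (0.161) or random block (0.0448), median centring (0.143), the deposited table (0.092), quantile normalization (0.00573), normexp on all spots (0.0913), and without single mice (range -0.0709 to 0.0455). They turned for Ccng1 with the slide as a fixed (0.0768) or random block (0.0509), median centring (0.0746), the deposited table (0.201) and without M007 (range over mice left out -0.286 to 0.0911), for Sparc with slide as a fixed block (-0.0297), for Klk5 with the scanner software's log ratio (0.0697) and without M020 (range over mice left out -0.439 to 0.0175), and for Klk7 in the deposited table (-0.0665). The median difference of hair follicle markers ran from -0.07 to 1.48 (slide as a fixed block). The causes were not tested. No paired analysis was possible because the replicate numbers were given in accession order and pair no mice. Dim Klk1 probes limit what the arrays can measure after 1 Gy.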

Other observations

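The largest difference of all tested probes with a symbol was that of Defb8, which encodes a beta-defensin, an antimicrobial peptide of epithelia, and which was named after its value was seen. It read 1.86, 1.93, 5.26 and 4.79 after 1 Gy, and 5.10, 6.74, 7.59 and 7.43 after 6 Gy. The groups overlapped across scanners and did not within either. The difference was 3.25 ± 1.03 (SE), 9.54-fold, with an adjusted p of 0.724 in limma's test, at 3.24 on scanner 1 and 3.26 on scanner 2. The 3 Gy mice read 5.95, 5.39, 1.07, 6.14 and 6.29 and the sham mice 3.05, 5.44, 4.27 and 2.31, so 2 of the 1 Gy mice, 1 of them the mouse of scanner 1, and 1 of the 3 Gy mice read far below the others of their dose. At d4 the difference between 6 Gy and 1 Gy was lower by 3.43 than at h2 (adjusted p = 1.00).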
